A study of Arabidopsis thaliana with 75 samples.

Results

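The subject is a difference of differences in wounded leaves of Arabidopsis thaliana: the change from 2h to 3D after wounding in leaves labelled gpat4 gpat8, minus the change over the same times in wild type (WT). It was chosen by genotype and time alone and uses 12 of the 75 messenger RNA libraries of the series. They fall into 4 groups of 3 replicates, namely gpat4 gpat8 at 3D, gpat4 gpat8 at 2h, WT at 3D and WT at 2h. Set beside them are 12 libraries of the same genotypes at 4h and 2D and 6 libraries labelled rbohE at 2h and 3D, also 3 per group. The name rbohE stands for a gene of the NADPH oxidase family, whose members make reactive oxygen. Values of the gene it names, AT1G19230, are given below with other called genes outside the lists. Every leaf had been cut with a steel blade, all came from leaf position 8 of plants 4 weeks old, and the hour of sampling is not given. Unwounded leaves of the later times were not analysed here, so that the hour of the day cannot be told apart from the time since the cut. The labels name no accession, allele or number of plants, and nothing states that replicates came from separate plants. The p-values therefore measure a spread between samples within groups, which was estimated over all 75 libraries and not over these 12 alone. In the descriptions the 4 groups compared carry library numbers 4, 1, 20 and 13, in the order given above. The meaning of these numbers is not stated, and a batch that followed them cannot be told apart from the groups.

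GPAT4 and GPAT8 are acyltransferases of cutin synthesis, and plants that lack both are known for a thin, leaky leaf cuticle. A cut leaf first sends out a burst of jasmonate, which removes the JAZ repressors and at the same time switches on the JAZ genes and the enzymes that break jasmonate down. Over the following days the cells beside the cut deposit suberin and lignin, and some of them divide. Anthocyanins, the red pigments made at the end of the flavonoid pathway, are known to follow jasmonate, sugar and light.

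The 12 libraries held between 49287597 and 67336926 counts (median 60821646), and 23048 to 23610 genes per library were counted at least once. Within groups the Pearson correlation of log-scaled values across genes lay between 0.977 and 0.987 over 12 pairs of replicates. A chi-square per degree of freedom, which grows with the differences between paired replicates, was 71.7 to 105 in gpat4 gpat8 at 2h. In the other groups it lay between 12.9 and 44.3. A spread shared over all groups can thus be smaller than that within gpat4 gpat8 at 2h. Expression is given in CPM, the share of a library's scaled total that a gene takes, with no correction for gene length, so that levels are compared between groups and not between genes. In whole leaves, fewer cells of a type and less RNA per cell cannot be told apart.

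At 2h and 3D the gene named first in the label was lower, as the label predicts. GPAT4 (chr1:221642-224351, RefSeq TAIR10.1, minus strand) had 36.5, 35.4 and 42.6 CPM in libraries labelled gpat4 gpat8 at 3D and 86.9, 87.6 and 78.7 CPM in those at 2h, against 97.2, 94.1 and 108 CPM in WT at 3D and 259, 255 and 242 CPM in WT at 2h. GPAT8 (chr4:173953-176870, minus strand) had 12.7, 12.1 and 18.4 CPM in libraries labelled gpat4 gpat8 at 3D and 36.1, 36.9 and 30.2 CPM in those at 2h, against 4.83, 5.14 and 4.78 CPM in WT at 3D and 13.6, 21.2 and 18.3 CPM in WT at 2h. GPAT8 was thus higher in every library that carries its name than in the WT libraries of the same time, which goes against the label. Neither the alleles nor the place of the counted reads within the gene is given in the sources used here, so the mutant label was not checked further and the libraries are called by their label throughout. Neither gene passed the test of the interaction (GPAT4 0.19 ± 0.14 log2, SE, adjusted p = 0.403; GPAT8 0.59 ± 0.40, adjusted p = 0.351; edgeR quasi-likelihood test, n = 3 per group).

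A gene was called when the adjusted p of edgeR's quasi-likelihood test was under 0.05 and the log2 interaction was at least 1 in size. A positive interaction means that the change from 2h to 3D was more positive in libraries labelled gpat4 gpat8 than in WT. Of 23475 genes tested, 1088 were called (4.63%), 511 of them higher (2.18%) and 577 lower (2.46%). The change from 2h to 3D itself was called in 8407 genes of libraries labelled gpat4 gpat8 (35.8%; 19% higher and 16.8% lower) and in 9365 genes of WT (39.9%; 21.8% higher and 18.1% lower). The labelled libraries differed from WT in 1607 genes at 2h (6.85%), 1075 of them higher (4.58%) and 532 lower (2.27%), and in 742 genes at 3D (3.16%), 592 of them higher (2.52%) and 150 lower (0.639%). Among the 577 genes called lower, 497 (86.1%) had the larger of the 2 genotype differences at 2h, against 271 of the 511 called higher (53.0%) and 61.7% of all genes tested. Of the genes called higher, 183 were called lower at 3D than at 2h in both genotypes, 109 in WT alone, 95 were called higher in both and 82 in libraries labelled gpat4 gpat8 alone. Of the genes called lower, 190 were called higher at 3D than at 2h in both genotypes, 186 in WT alone, and 127 were called lower in libraries labelled gpat4 gpat8 alone. In 25 of the genes called higher and 44 of those called lower, every library of some group had at most 3 counts, so that the fitted size depends on the prior count there. Without replicate 2 of gpat4 gpat8 at 2h, 730 genes were called and 328 of them lower. In the 12 libraries fitted alone, with the spread taken from these only, 776 were called and 335 lower. Of the 106 named genes that were called, 25 were no longer called in the 12 libraries fitted alone, with adjusted p-values between 0.0525 and 0.142.

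**Figure D1:**
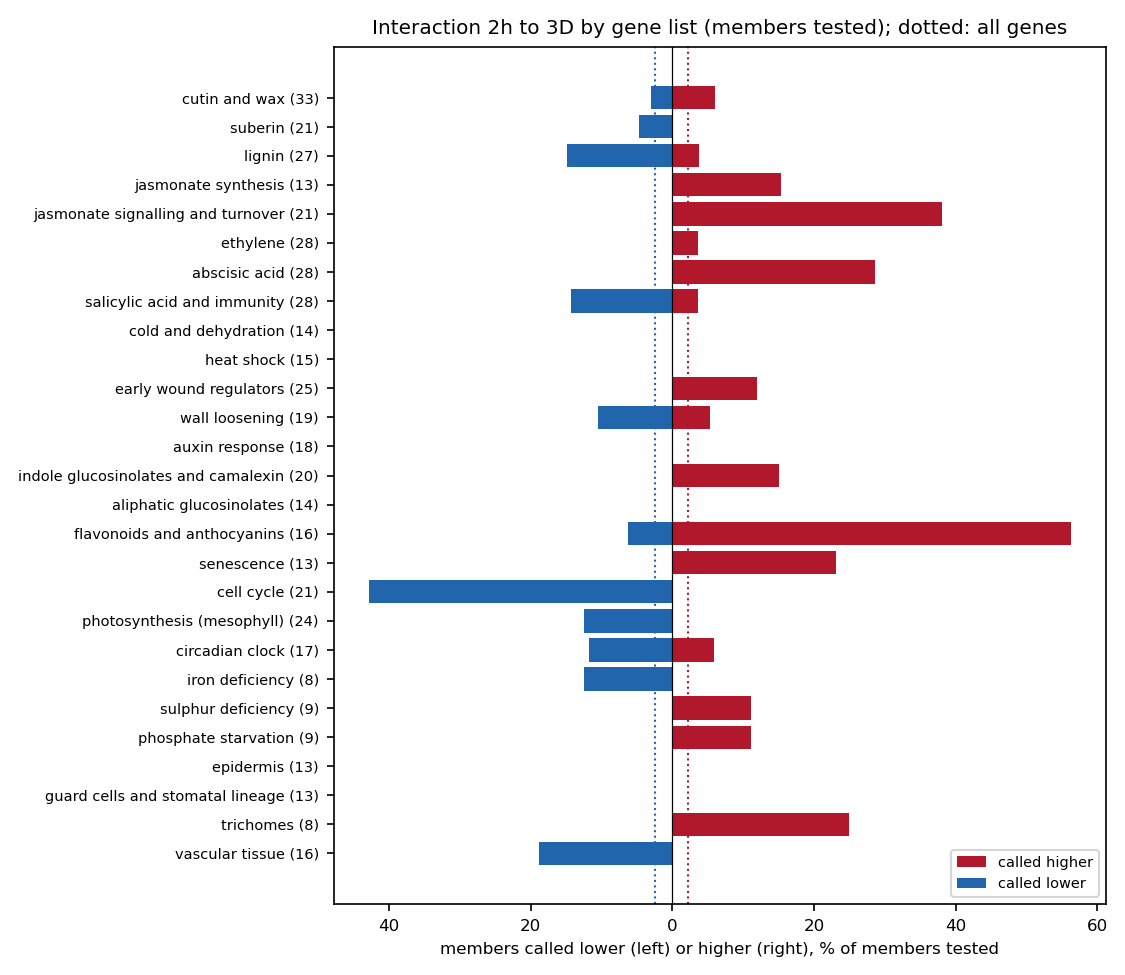
Members of 27 gene lists called in the interaction, as a percentage of the members tested (number in brackets): red bars to the right are members called higher, blue bars to the left members called lower, and dotted lines mark the same for all genes tested (2.18% and 2.46%). The longest red bars belong to flavonoids and anthocyanins (9 of 16) and jasmonate signalling and turnover (8 of 21), and the longest blue bar to the cell cycle (9 of 21).

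Most genes of anthocyanin synthesis had positive interactions, with lower levels at 2h in libraries labelled gpat4 gpat8 than in WT. Of the 16 members of the flavonoid and anthocyanin list, 9 were called higher and 1 lower, against 2.18% and 2.46% of all genes tested. Its median interaction was 2.21 log2, against -0.00233 over all genes tested. Its median genotype difference was -2.39 log2 at 2h, where 12 of the 16 were called lower, and -0.11 log2 at 3D, where 3 were. Among all genes, 2.27% were called lower at 2h and 0.639% at 3D.

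TT4, chalcone synthase at the entry of the pathway, had 1081, 1154 and 1218 CPM in libraries labelled gpat4 gpat8 at 3D and 21.5, 37.9 and 33.6 CPM at 2h, against 1117, 862 and 989 CPM in WT at 3D and 293, 179.9 and 218 CPM in WT at 2h. Its interaction was 3.11 ± 0.55 log2 (SE, adjusted p = 7.36e-05, edgeR). F3H, which makes dihydroflavonols, had an interaction of 1.68 log2 (adjusted p = 0.0146), but 94.5% of the gene is overlapped by an annotated gene on the other strand and its value is uncertain. TT7, the flavonoid 3'-hydroxylase, had 375, 414 and 515 CPM in libraries labelled gpat4 gpat8 at 3D and 2.94, 2.56 and 2.58 CPM at 2h, against 392, 289.9 and 343 CPM in WT at 3D and 20.9, 7.98 and 13.4 CPM in WT at 2h.

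DFR, dihydroflavonol reductase, opens the branch that leads to anthocyanins. It had 864, 895 and 872 CPM in libraries labelled gpat4 gpat8 at 3D and 0.190, 1.74 and 0.849 CPM at 2h, against 817, 709 and 794 CPM in WT at 3D and 115, 45.1 and 63.4 CPM in WT at 2h. At 3D the groups lie close to each other, whereas at 2h every labelled library lies far under every WT library. The interaction was 6.49 ± 0.81 log2 (SE, adjusted p = 1.99e-07, edgeR), made of a difference of -6.30 at 2h and 0.18 at 3D. LDOX, anthocyanidin synthase, had 546, 564 and 530.4 CPM in libraries labelled gpat4 gpat8 at 3D and 0.317, 0.706 and 0.309 CPM at 2h, against 525, 435 and 475 CPM in WT at 3D and 31.0, 12.8 and 17.57 CPM in WT at 2h. UF3GT, a glycosyltransferase that decorates anthocyanins, gave 4.84 log2 (adjusted p = 9.27e-07). AT5MAT, an anthocyanin malonyltransferase, gave 4.76 log2 (adjusted p = 8.21e-04). GSTF12, the glutathione transferase needed to carry anthocyanins into the vacuole, had 1.06, 3.11 and 1.74 CPM in the labelled libraries at 2h, against 70.1, 32.2 and 44.6 CPM in WT at 2h, and 412, 423 and 412 CPM in the labelled libraries at 3D, against 482, 413 and 453 CPM in WT at 3D. AT4G14090, annotated as a UDP-glycosyltransferase and outside the list, moved alike at 2.89 log2 (adjusted p = 3.21e-05).

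Among the regulators of the pathway, TT8, a bHLH factor that activates the late genes, had 0.296, 0.267 and 0.289 CPM in libraries labelled gpat4 gpat8 at 2h, against 16.3, 4.64 and 7.56 CPM in WT at 2h, and 40.3, 39.98 and 47.2 CPM at 3D, against 49.4, 42.8 and 45.1 CPM in WT at 3D (interaction 4.94 ± 0.57 log2, SE, adjusted p = 4.35e-08, edgeR). TTG2, a WRKY factor of trichome and pigment formation, likewise had 0.317, 0.611 and 0.386 CPM in the labelled libraries at 2h, against 3.16, 1.98 and 3.05 CPM in WT at 2h, with an interaction of 2.61 log2. MYB90 and PAP1 are MYB activators of the pathway. MYB90 had 125, 102 and 85.0 CPM in the labelled libraries at 3D and 77.0, 57.8 and 66.5 CPM at 2h, against 286, 228 and 205 CPM in WT at 3D and 450.4, 261 and 343 CPM in WT at 2h. PAP1 had 71.9, 54.6 and 42.2 CPM in the labelled libraries at 3D and 47.3, 59.8 and 67.5 CPM at 2h, against 164, 133 and 118 CPM in WT at 3D and 237, 139 and 149 CPM in WT at 2h. Both were lower in every labelled library than in the WT libraries of the same time, at 3D as well as at 2h. Neither passed the test of the interaction (MYB90 1.18 ± 0.44 log2, SE, adjusted p = 0.0611, and PAP1 0.29 ± 0.40 log2, adjusted p = 0.705). Their values are given after they were seen. MYB111, an activator of flavonol genes, was called lower (-1.97 log2, adjusted p = 0.0144), with 5.51, 2.08 and 2.56 CPM in the labelled libraries at 3D, against 14.1, 10.3 and 9.82 CPM in WT at 3D.

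The call did not survive the loss of 1 library for F3H without replicate 1 of WT at 2h (1.37 log2) and for MYB111 without replicate 2 of gpat4 gpat8 at 3D (-1.72 log2) or replicate 2 of gpat4 gpat8 at 2h (-1.75 log2).

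**Figure D2:**
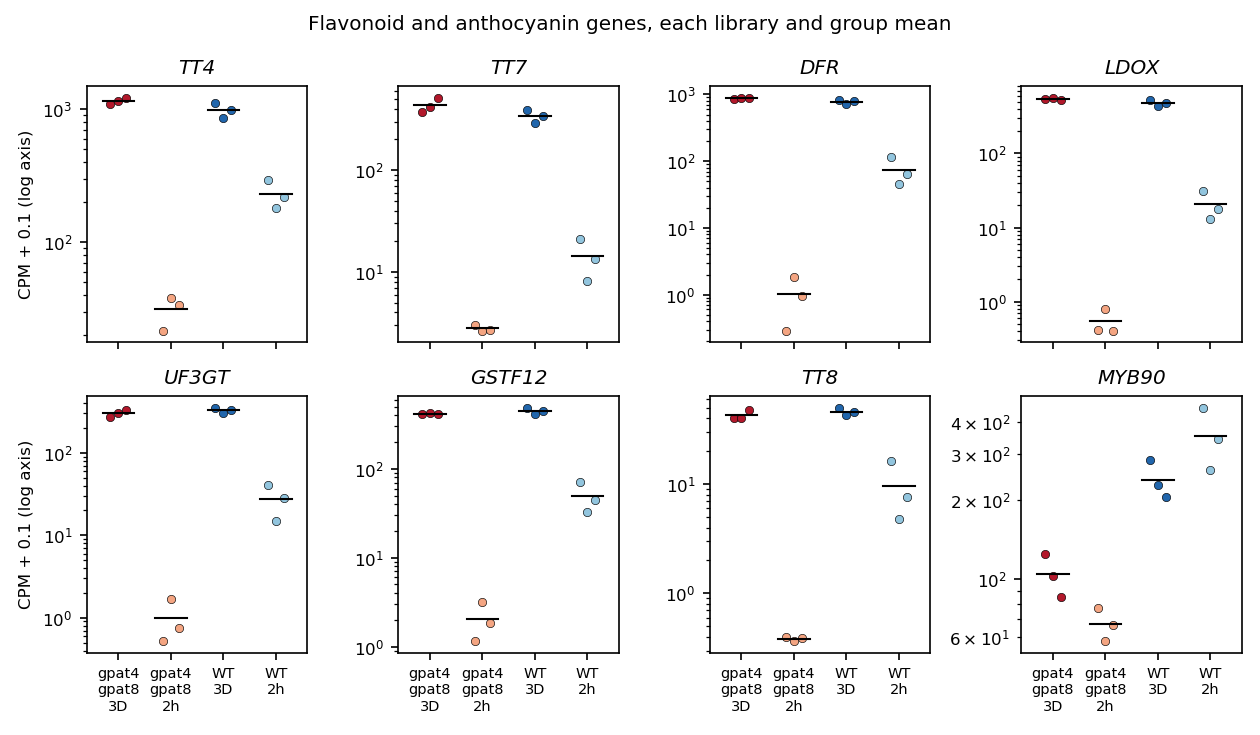
Expression of 8 flavonoid and anthocyanin genes in each of the 12 libraries (points, CPM + 0.1 on a log axis) with the mean of each group (line), libraries labelled gpat4 gpat8 left of WT. At 2h the labelled libraries lie under WT in all 8 panels, at 3D the enzymes and TT8 meet at like levels, and MYB90 stays lower in the labelled libraries.

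The 250 bases before the annotated start of the called members were searched on both strands for the G-box, CACGTG, a site that bHLH and bZIP factors are known to bind. Of the 10 called members, 4 hold it, against 6.99% of the windows of all genes tested. DFR (chr5:17166033-17166282, minus strand) and UF3GT (chr5:21938397-21938646, minus strand) are shown in RefSeq TAIR10.1 with the G-box in capitals. It begins 14 bases before the start of DFR and 171 and 128 bases before that of UF3GT.
DFR: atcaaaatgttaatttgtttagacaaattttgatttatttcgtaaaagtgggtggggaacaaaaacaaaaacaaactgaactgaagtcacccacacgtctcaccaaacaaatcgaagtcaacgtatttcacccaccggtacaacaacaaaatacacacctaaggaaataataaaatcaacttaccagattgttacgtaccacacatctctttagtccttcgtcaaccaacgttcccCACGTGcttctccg
UF3GT: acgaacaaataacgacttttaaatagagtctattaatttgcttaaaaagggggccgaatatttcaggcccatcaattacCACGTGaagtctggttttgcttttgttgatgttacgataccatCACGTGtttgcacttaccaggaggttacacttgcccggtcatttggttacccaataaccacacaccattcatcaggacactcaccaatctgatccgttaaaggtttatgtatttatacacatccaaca

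Other libraries of the same genotypes showed the difference as well. At 4h DFR had 0.350, 0 and 0.0544 CPM in libraries labelled gpat4 gpat8, against 105, 185 and 135 CPM in WT, and at 2D it had 464, 460.0 and 361 CPM, against 364, 567 and 529.8 CPM in WT. Over the list, 12 of 16 members were called higher and 1 lower in the interaction from 4h to 2D, for which 8.27% of all genes were called higher and 10.2% lower. In the libraries labelled rbohE, DFR averaged 956 ± 64.1 CPM at 3D and 3.06 ± 0.626 CPM at 2h (SD, n = 3), so that at 2h it was low there too. With rbohE in place of WT, a comparison that shares the gpat4 gpat8 libraries, 1 of the 16 was called, lower, where 0.984% of all genes were called higher and 1.38% lower.

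Most jasmonate genes also had positive interactions, and part of them were called. Of the 21 members of the list of jasmonate signalling and turnover, 16 were called lower at 3D than at 2h in libraries labelled gpat4 gpat8 and 17 in WT. In the interaction 8 members were called, each of them higher, against 2.18% of all genes. Of the 21 values 19 were positive, and the median was 1.16 log2. In all 8 called members the difference at 3D was positive. CYP94C1, JAZ5 and JAZ6 also had differences of -0.98, -0.78 and -0.55 log2 at 2h (adjusted p = 0.0176, 0.0285 and 0.0106). The median genotype difference was -0.27 log2 at 2h and 0.89 log2 at 3D. At 3D itself 8 members differed, each of them higher, against 2.52% of all genes.

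All 7 repressor genes called belong to the JAZ family. TIFY7, also known as JAZ9, had 237, 248 and 237 CPM in libraries labelled gpat4 gpat8 at 3D and 1995, 1805 and 1868 CPM at 2h, against 79.3, 82.7 and 83.7 CPM in WT at 3D and 2329, 2158 and 2160 CPM in WT at 2h. Its interaction was 1.79 ± 0.28 log2 (SE, adjusted p = 1.04e-05, edgeR), and the 3D groups lie well apart. JAZ7 had 3.94, 6.58 and 4.08 CPM in the labelled libraries at 3D, against 0.481, 0.484 and 0.962 CPM in WT at 3D, and 55.8, 49.9 and 35.2 CPM at 2h, against 79.1, 73.2 and 65.2 CPM in WT at 2h. JAZ8, which lacks the usual degron and so resists removal, had 0.939, 1.16 and 0.741 CPM in the labelled libraries at 3D, against 0.0708, 0.105 and 0.163 CPM in WT at 3D. JAZ10 had 6.61, 12.3 and 5.73 CPM in the labelled libraries at 3D, against 2.21, 2.61 and 1.76 CPM in WT at 3D, where replicate 2 of the labelled group is the highest (interaction 2.11 log2, and 1.69 log2 without that library, when it was no longer called). JAZ3, JAZ5 and JAZ6 gave 1.16, 1.91 and 1.33 log2. JAZ1, TIFY10B and JAZ12 had adjusted p-values of 0.0447, 0.00122 and 0.00487 but interactions under 1 log2.

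CYP94C1, which oxidises the active hormone jasmonoyl-isoleucine, had 4.53, 8.66 and 2.15 CPM in libraries labelled gpat4 gpat8 at 3D and 317, 263 and 264 CPM at 2h, against 2.19, 2.11 and 2.47 CPM in WT at 3D and 554, 519 and 591 CPM in WT at 2h (interaction 2.16 ± 0.50 log2, SE, adjusted p = 0.00192, edgeR). At 3D its groups overlap, and the labelled libraries at 2h lie under those of WT. The receptor gene COI1 had an interaction of -0.29 log2 (adjusted p = 0.0119). MYC4, a bHLH activator, was at 10.5, 12.7 and 11.5 CPM in the labelled libraries at 2h, against 26.1, 22.0 and 20.2 CPM in WT at 2h, with an interaction of 0.82 log2 (adjusted p = 2.45e-04). MYC2, the main activator, was listed at 0 in 6 of the 12 libraries and at up to 13.3 CPM in others of the same groups, so that its count is not usable here.

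**Figure D3:**
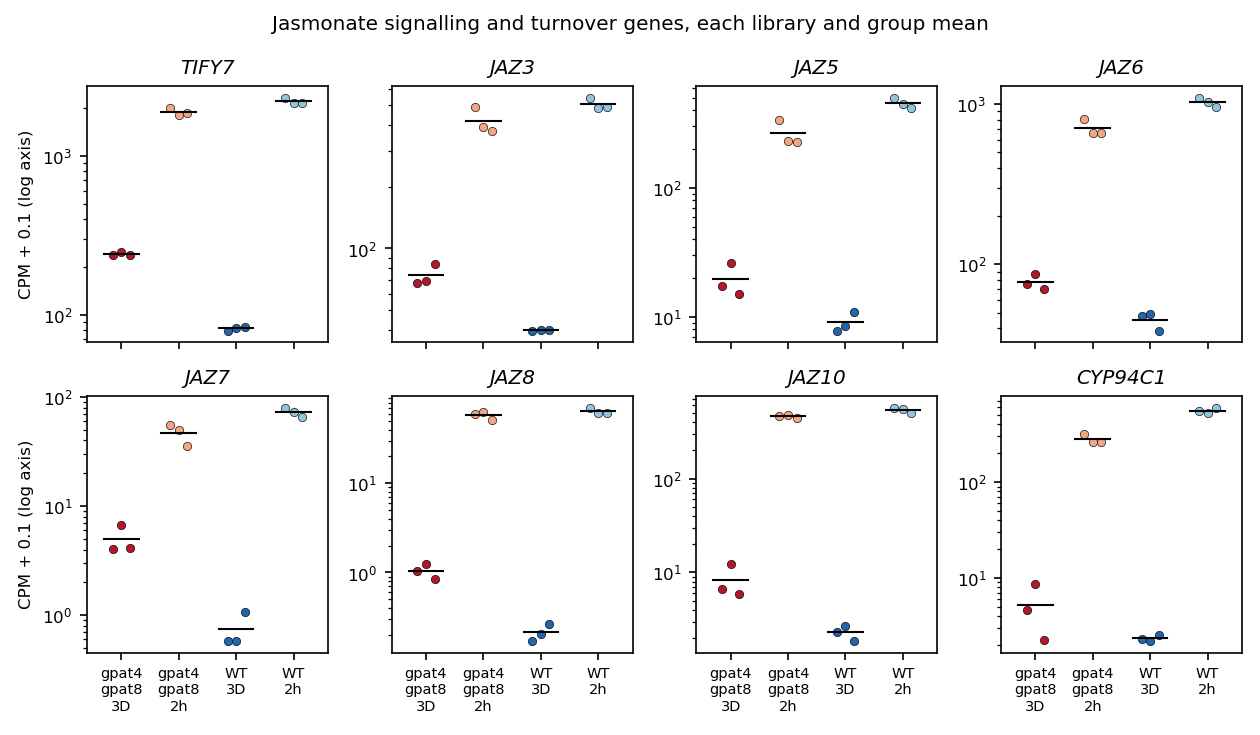
Expression of the 8 called genes of jasmonate signalling and turnover in each of the 12 libraries (points, CPM + 0.1 on a log axis) with the mean of each group (line), libraries labelled gpat4 gpat8 left of WT. The 2h groups of both genotypes are high, and the 3D group of the labelled libraries lies above that of WT in mean in all 8 panels.

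Of these 8 genes, 3 hold a G-box in the 250 bases before the start. JAZ3 (chr3:6119457-6119706, plus strand), JAZ7 (chr2:14572780-14573029, plus strand) and JAZ8 (chr1:10596102-10596351, plus strand) are shown with it in capitals, beginning 140 and 82, 34 and 10 bases before the start.
JAZ3: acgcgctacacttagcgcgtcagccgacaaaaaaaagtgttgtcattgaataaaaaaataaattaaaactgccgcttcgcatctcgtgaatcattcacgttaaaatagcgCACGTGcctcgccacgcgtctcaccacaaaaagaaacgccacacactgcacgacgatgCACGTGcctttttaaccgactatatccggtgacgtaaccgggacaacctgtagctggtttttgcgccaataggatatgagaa
JAZ7: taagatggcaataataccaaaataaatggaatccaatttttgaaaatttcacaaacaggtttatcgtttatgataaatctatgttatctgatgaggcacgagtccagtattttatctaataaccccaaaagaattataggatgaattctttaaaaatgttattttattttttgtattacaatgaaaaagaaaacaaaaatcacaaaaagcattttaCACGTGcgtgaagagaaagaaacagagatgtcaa
JAZ8: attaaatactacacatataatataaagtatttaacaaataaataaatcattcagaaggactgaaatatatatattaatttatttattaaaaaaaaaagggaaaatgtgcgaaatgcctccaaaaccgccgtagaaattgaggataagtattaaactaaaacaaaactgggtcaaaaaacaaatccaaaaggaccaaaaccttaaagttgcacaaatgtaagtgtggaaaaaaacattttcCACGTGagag

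Among the enzymes that make jasmonate, 2 of 13 were called, both higher, against 2.18% of all genes, and 12 of the 13 interactions were positive. LOX2, the plastid lipoxygenase that feeds the pathway, had 1509, 1649 and 1304 CPM in libraries labelled gpat4 gpat8 at 3D and 8816, 8112 and 9610 CPM at 2h, against 638, 741 and 629 CPM in WT at 3D and 10310, 10845 and 9638 CPM in WT at 2h. Its interaction was 1.37 ± 0.21 log2 (SE, adjusted p = 6.87e-06), and every labelled library at 3D was above every WT library at 3D. LOX4, another lipoxygenase, gave 1.73 log2 (adjusted p = 0.00986), and 1.41 log2 without replicate 2 of the labelled 3D group, when 1 of the 13 was called. Without replicate 1 of the labelled 2h group 4 of the 13 were called. AOS and OPR3, which act after it, had interactions of 0.70 and 0.99 log2 (adjusted p = 0.00373 and 0.00205), under the threshold of size.

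Outside the lists, further genes known from wound and defence responses were called higher. CORI3, a coronatine-induced gene, had 306, 356 and 244 CPM in libraries labelled gpat4 gpat8 at 3D, against 105, 99.0 and 75.7 CPM in WT at 3D, while at 2h it had 2524, 2464 and 2856 CPM in the labelled libraries, against 2661, 2805 and 2515 CPM in WT. TPS04, which makes the volatile precursor geranyllinalool, had 5.85, 62.0 and 0.772 CPM in the labelled libraries at 3D, against 0.411, 1.17 and 0.563 CPM in WT at 3D. Its interaction of 5.45 log2 (adjusted p = 0.00172) rests on replicate 2, without which it was 2.64 log2 and not called, nor was it in the 12 libraries fitted alone. AT1G66100, annotated as a plant thionin, had 9.99, 23.4 and 11.0 CPM in the labelled libraries at 3D, against 1.23, 0.982 and 0.563 CPM in WT at 3D, with an interaction of 3.37 log2 (adjusted p = 1.59e-06).

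In the interaction from 4h to 2D, 3 of the 21 signalling and turnover genes were called higher and 1 lower. Of all genes tested, 8.27% were called higher and 10.2% lower there. TIFY7 had 83.7, 62.3 and 65.1 CPM at 2D in libraries labelled gpat4 gpat8, against 85.6, 96.3 and 114 CPM in WT at 2D, and 895, 653 and 959.7 CPM at 4h, against 961, 887 and 854 CPM in WT at 4h. JAZ10 had 6.504, 4.01 and 3.01 CPM at 2D in the labelled libraries, against 7.51, 8.26 and 8.19 CPM in WT at 2D. With rbohE in place of WT, 2 of the 21 were called, both higher, against 0.984% of all genes. TIFY7 was among them at 1.12 log2 (adjusted p = 0.00612).

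Of 28 abscisic acid genes, 8 were called, each of them higher, against 2.18% of all genes, with a median interaction of 0.63 log2. The hormone is broken down by the CYP707A hydroxylases, 2 of which were called. CYP707A2 had 17.3, 15.8 and 18.1 CPM in libraries labelled gpat4 gpat8 at 3D and 0.697, 1.24 and 0.926 CPM at 2h, against 26.6, 19.3 and 18.5 CPM in WT at 3D and 6.91, 5.20 and 8.14 CPM in WT at 2h (interaction 2.48 ± 0.39 log2, SE, adjusted p = 9.68e-06). CYP707A1 gave 1.44 log2 (adjusted p = 4.69e-04), with a difference of -1.07 at 2h and 0.37 at 3D. The phosphatases that hold the signal back, PP2CA, HAI1 and HAI2, gave 1.32, 2.30 and 1.29 log2. PP2CA had 339, 313 and 337 CPM in the labelled libraries at 3D, against 208, 184 and 178 CPM in WT at 3D, with no overlap. It had 639, 339.6 and 358 CPM in the labelled libraries at 2h, against 731, 626 and 559.9 CPM in WT at 2h. Of the response genes, RD26, a NAC factor, had 138, 154 and 85.1 CPM in the labelled libraries at 3D, against 27.6, 28.8 and 48.6 CPM in WT at 3D, and 1102, 766 and 707 CPM at 2h, against 1000, 940.4 and 903 CPM in WT at 2h. HB-7, a homeodomain factor, and RAB18, a dehydrin, gave 1.17 and 1.03 log2. In the synthesis branch NCED3, the rate-limiting cleavage enzyme, had an interaction of 0.65 log2 (adjusted p = 0.36). In the interaction from 4h to 2D, 9 of the 28 were called higher and 2 lower, against 8.27% and 10.2% of all genes. RD20, a lipid-body protein that answers to abscisic acid, and SIP2, an enzyme that breaks raffinose down, gave 1.103 and 1.41 log2 outside the list. When libraries were left out singly, calls ended for HAI1 without any one of 6 of the 12 libraries (2.11 to 2.34 log2), for RAB18 without any one of 4 of the 12 libraries (0.73 to 0.98 log2) and for RD20 without any one of 8 of the 12 libraries (1.02 to 1.103 log2).

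Some defence and stress genes were called higher in the interaction as well, where 2.18% of all genes were called higher. Among the early wound regulators 3 of 25 were called, each of them higher: the zinc finger gene ZF2 at 1.58 log2 (adjusted p = 0.00626), WRKY40 at 2.22 (adjusted p = 0.04) and WRKY75 at 2.16 (adjusted p = 0.0321). ZF2 had 36.6, 37.8 and 30.5 CPM in the labelled libraries at 3D, against 10.6, 11.1 and 16.5 CPM in WT at 3D, with no overlap. Among genes of indole glucosinolates and camalexin, 3 of 20 were called, each of them higher. CYP79B3, which converts tryptophan to its oxime, had 26.7, 44.1 and 33.4 CPM in the labelled libraries at 3D, against 11.1, 11.7 and 8.77 CPM in WT at 3D, and 349, 414 and 459.6 CPM at 2h, against 431, 498 and 514 CPM in WT at 2h (interaction 1.96 ± 0.27 log2, SE, adjusted p = 1.69e-06). CYP79B2, which does the same step, gave 1.74 log2. MYB34, their activator, gave 1.32 log2 (adjusted p = 2.32e-04). Of 13 senescence genes 3 were called higher, namely SAG13, NAC3 and the stay-green gene AT4G11910 (NYE2), at 1.45, 1.29 and 1.56 log2. Dependent on 1 library were the calls of WRKY40 without any one of 8 of the 12 libraries (1.53 to 2.24 log2), of WRKY75 without any one of 6 of the 12 libraries (1.23 to 2.21 log2), of CYP79B2 without replicate 2 of gpat4 gpat8 at 3D (1.01 log2), of SAG13 without any one of 5 of the 12 libraries (1.18 to 1.37 log2) and of NAC3 without any one of 8 of the 12 libraries (1.29 log2 or less).

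Cell cycle genes had negative interactions. Most were higher at 3D than at 2h in both genotypes. At 2h, where they are low, 9 of the 21 were called higher in libraries labelled gpat4 gpat8 than in WT, against 4.58% of all genes. In the interaction 9 of the 21 members were called, each of them lower, against 2.46% of all genes. All 21 values were negative with a median interaction of -1.52 log2. The median genotype difference was 1.05 log2 at 2h and -0.31 log2 at 3D. From 2h to 3D, 18 of the 21 were called higher in the labelled libraries and all 21 in WT.

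The MCM genes encode the helicase that unwinds DNA for replication, and 5 of the 9 called genes belong to it. MCM3 had 9.77, 9.24 and 10.3 CPM in libraries labelled gpat4 gpat8 at 3D and 1.29, 2.58 and 1.39 CPM at 2h, against 9.98, 12.2 and 10.8 CPM in WT at 3D and 0.650, 0.844 and 0.903 CPM in WT at 2h (interaction -1.30 ± 0.29 log2, SE, adjusted p = 0.00115). MCM2 had 0.718, 2.88 and 0.636 CPM in the labelled libraries at 2h, against 0, 0.384 and 0.341 CPM in WT at 2h, and gave -2.77 log2 (adjusted p = 0.00299). PRL, also known as MCM7, had 0.613, 1.26 and 0.540 CPM in the labelled libraries at 2h, against 0.108, 0 and 0.261 CPM in WT at 2h. MCM4 and MCM5 gave -2.17 and -1.63 log2. The mitotic kinases CDKB1;1 and CDKB2;1 gave -2.66 and -1.66 log2, the B-type cyclin CYC1BAT gave -2.31 log2, and the cytokinesis syntaxin SYP111 (KNOLLE) gave -1.62 log2, its count being shared with a gene on the other strand over 31.4% of its length.

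These calls lean on 1 library. In the labelled 2h group replicate 2 was the highest of the 3 for all 8 cell cycle genes plotted, and without it MCM5 alone stayed called (1 of 21), while MCM2, MCM3 and PRL gave -1.70, -0.91 and -2.28 log2. The calls of MCM4, CDKB1;1, CDKB2;1 and SYP111 ended without the same library (-1.65, -2.21, -1.14 and -1.19 log2), and that of CYC1BAT without any one of 9 libraries (-2.64 to -1.70 log2). In the 12 libraries fitted alone, 4 of the 21 were called. In the interaction from 4h to 2D, from other libraries, 18 of the 21 were called, each of them lower, against 10.2% of all genes. MCM2 had 2.22, 3.35 and 4.28 CPM at 4h in the labelled libraries, against 0.182, 0.353 and 0.218 CPM in WT at 4h, and 9.41, 8.54 and 8.296 CPM at 2D, against 9.84, 10.2 and 9.12 CPM in WT at 2D. With rbohE in place of WT, 5 of the 21 were called, each of them lower, against 1.38% of all genes.

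**Figure D4:**
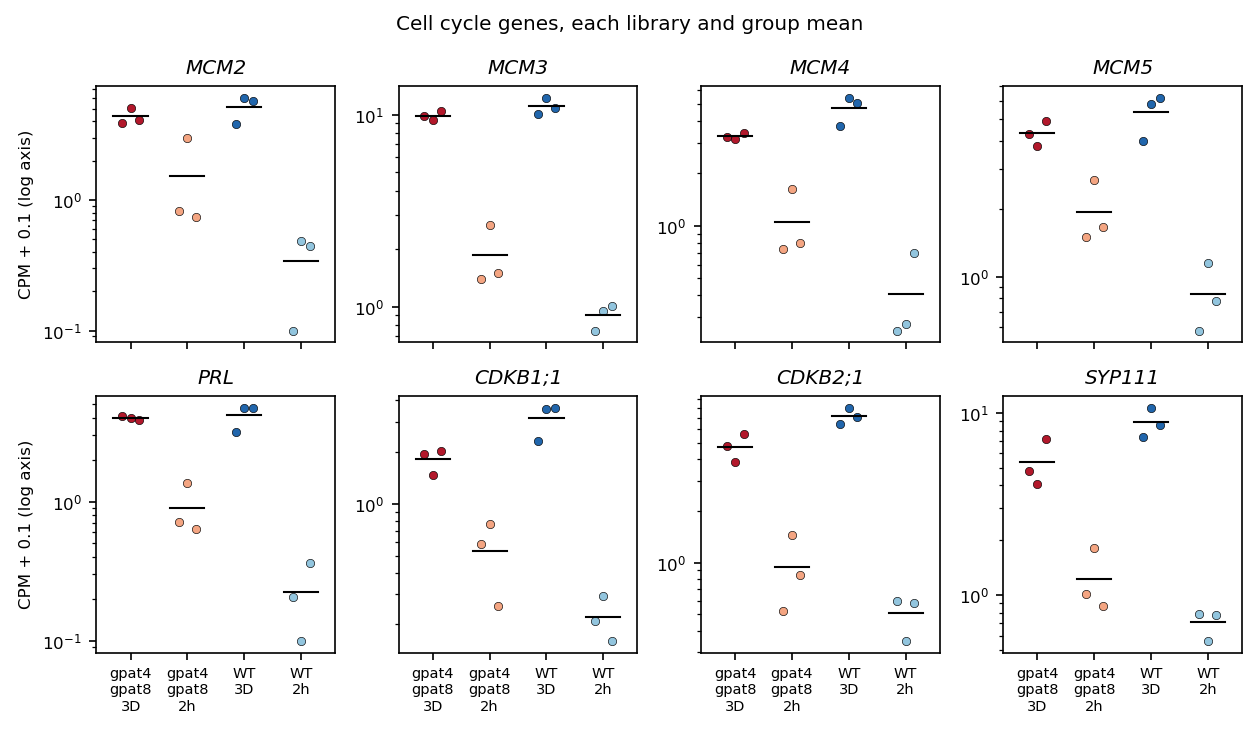
Expression of 8 called cell cycle genes in each of the 12 libraries (points, CPM + 0.1 on a log axis) with the mean of each group (line), libraries labelled gpat4 gpat8 left of WT. At 2h the mean of the labelled libraries lies above that of WT in all 8 panels, with replicate 2 (middle point) the highest.

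E2F-type sites (TTCCCGC or TTGGCGC, both strands) are known from promoters of replication genes and were searched after the values had been seen. They are held in the 250 bases before the start by 4 of the 9 called cell cycle genes, 28 of the 510 windows of genes called lower (5.49%), and 1.90% of the windows of all genes tested. MCM2 (chr1:16969964-16970213, plus strand), MCM3 (chr5:18773707-18773956, minus strand) and MCM5 (chr2:3527501-3527750, minus strand) are shown with the sites in capitals. They begin 26 and 13, 170 and 62, and 18 bases before the start.
MCM2: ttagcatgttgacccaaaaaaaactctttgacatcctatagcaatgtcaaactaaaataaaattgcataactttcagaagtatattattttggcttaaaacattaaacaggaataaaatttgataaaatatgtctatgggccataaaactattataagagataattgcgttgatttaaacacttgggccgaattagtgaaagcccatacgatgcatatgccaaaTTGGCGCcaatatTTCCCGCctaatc
MCM3: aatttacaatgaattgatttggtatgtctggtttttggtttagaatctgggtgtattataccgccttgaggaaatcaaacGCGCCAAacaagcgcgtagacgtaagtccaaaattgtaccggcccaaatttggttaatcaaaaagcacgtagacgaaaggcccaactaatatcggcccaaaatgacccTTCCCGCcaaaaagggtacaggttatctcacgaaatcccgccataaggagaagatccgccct
MCM5: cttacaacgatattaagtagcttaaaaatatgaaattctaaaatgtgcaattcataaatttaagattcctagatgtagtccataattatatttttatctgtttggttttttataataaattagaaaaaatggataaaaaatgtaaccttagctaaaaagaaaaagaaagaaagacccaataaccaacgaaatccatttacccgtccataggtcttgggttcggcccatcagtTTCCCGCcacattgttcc

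The G-box was held by 13.3% of the windows of genes called higher (68 of 511), 6.27% of those of genes called lower and 6.99% of all genes tested. For the W-box (TTGACC or TTGACT) these shares were 31.9%, 28.8% and 28.4%, for the GCC box (GCCGCC) 1.57%, 1.76% and 1.97%, and for the core of the evening element (AATATCT) 12.5%, 11.6% and 9.98%. No motif holds another of these, but matches of different motifs can overlap. A match is a run of letters, and binding was not measured.

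Genes of photosynthesis, which mark the mesophyll, leaned the same way as those of the cell cycle. All 24 members had a negative interaction, with a median of -0.53 log2, and 3 were called, against 2.46% of all genes called lower. RBCS1B, a small subunit of Rubisco, had 420.0, 440.2 and 569.6 CPM in libraries labelled gpat4 gpat8 at 3D and 309, 460.1 and 163 CPM at 2h, against 399, 376 and 378 CPM in WT at 3D and 114, 109.6 and 134 CPM in WT at 2h. RBCS2B and the antenna gene LHCB2.1 gave -1.05 and -1.09 log2. The summed level of the list was 15119 to 17019 CPM in the labelled libraries at 3D and 29759 to 52672 CPM at 2h, against 11582 to 12914 CPM in WT at 3D and 17720 to 20556 CPM in WT at 2h. No member was called without replicate 2 of the labelled 2h group (RBCS1B -0.67 log2), without replicate 1 of the labelled 3D group (-0.99 log2) or in the 12 libraries fitted alone, 1 was without replicate 1 of WT at 2h, and 5 or 6 were without replicate 1 or 3 of the labelled 2h group or replicate 3 of WT at 2h. RBCS2B and LHCB2.1 gave -0.91 to -0.66 log2 and -1.05 to -0.79 log2 where their calls ended without 1 library. In the 12 libraries fitted alone they gave -1.07 and -1.11 log2 (adjusted p = 0.135 and 0.087). In the interaction from 4h to 2D all 24 were called lower, against 10.2% of all genes.

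Markers of other leaf cell types were compared in the same groups. By edgeR no member was called among 13 epidermis and 13 guard cell and stomatal lineage genes, where 4 and 1 had an unadjusted p under 0.05 and DESeq2 called 0 and 0. The summed level of the epidermis list was 556 to 594 CPM in the labelled libraries at 3D and 567 to 677 CPM at 2h, against 496 to 526 CPM in WT at 3D and 564 to 639 CPM in WT at 2h. For guard cells the sum was 147 to 151 CPM in the labelled libraries at 3D and 143 to 159 CPM at 2h, against 156 to 174 CPM in WT at 3D and 142 to 201 CPM in WT at 2h. Of 8 trichome genes, TTG2 and GL3 were called higher (2.61 and 1.46 log2), and the sum was 60.4 to 64.6 CPM in the labelled libraries at 3D and 32.6 to 36.9 CPM at 2h, against 66.4 to 71.3 CPM in WT at 3D and 32.4 to 38.3 CPM in WT at 2h. Of 16 vascular genes 3 were called lower in the interaction, and the sum was 1326 to 1533 CPM in the labelled libraries at 3D and 1455 to 1793 CPM at 2h, against 1185 to 1323 CPM in WT at 3D and 1847 to 1915 CPM in WT at 2h. At 2h itself 7 of the 16 vascular genes were called higher and none lower, with a median difference of 0.61 log2. All genes tested had 4.58% called higher and 2.27% called lower at 2h. Their sum, to which abundant members add most, was nevertheless lower in the labelled libraries than in WT without overlap. SWEET12, a sucrose exporter of the phloem, had 196, 178 and 213 CPM in the labelled libraries at 2h, against 291, 278 and 323 CPM in WT at 2h. Of the 24 photosynthesis genes, 14 were called higher at 2h and none lower, and their sum was higher without overlap. The part of cell composition in these results was not tested.

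The 3 vascular genes called lower belong to the xylem. XCP1 and XCP2, proteases of xylem vessels, gave -2.29 and -1.28 log2, and IRX3, a cellulose synthase of the secondary wall, gave -1.65 log2. XCP1 had 5.74, 7.73 and 11.0 CPM in libraries labelled gpat4 gpat8 at 3D and 9.23, 12.5 and 10.2 CPM at 2h, against 8.61, 12.8 and 10.1 CPM in WT at 3D and 2.94, 2.94 and 2.49 CPM in WT at 2h. Among 27 lignin genes, 4 were called lower and 1 higher, against 2.46% and 2.18% of all genes, with a median interaction of -0.26 log2. The laccases IRX12 (LAC4), LAC11 and LAC17, which polymerise lignin, gave -1.29, -1.68 and -1.86 log2, although 97.4% of LAC17 is overlapped by a gene on the other strand and its value is uncertain. The peroxidase AT5G64120 (PRX71) had 51.5, 75.4 and 66.3 CPM in the labelled libraries at 2h, against 15.9, 26.5 and 18.8 CPM in WT at 2h, and gave -1.79 log2 (adjusted p = 0.00267). The member called higher, 4CL3, is the ligase known to serve flavonoids, and gave 1.80 log2 (adjusted p = 0.00789). LAC17 alone of the 3 laccases was called higher at 2h, and at 3D their adjusted p-values were 0.459, 0.141 and 0.36. With 1 library left out, the call ended for XCP2 without any one of 11 of the 12 libraries (-1.37 to -1.11 log2) and for IRX12 without any one of 6 of the 12 libraries (-1.34 to -1.13 log2).

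Of 19 wall-loosening genes, 2 were called lower and 1 higher, against 2.46% and 2.18% of all genes, with a median interaction of -0.06 log2. XTH4, a wall-remodelling transglucosylase, had 34.9, 35.3 and 40.7 CPM in libraries labelled gpat4 gpat8 at 3D and 114, 95.5 and 43.7 CPM at 2h, against 25.2, 28.1 and 30.8 CPM in WT at 3D and 6.75, 7.79 and 11.9 CPM in WT at 2h (interaction -2.85 ± 0.50 log2, SE, adjusted p = 6.98e-05). The expansin EXPA1 gave -1.17 log2, and the touch-induced TCH4 was the member called higher, at 1.90 log2 (adjusted p = 0.0447). Outside the list, EXT4, an extensin, had 9.49, 36.4 and 13.2 CPM in the labelled libraries at 2h, against 1.69, 5.56 and 7.0 CPM in WT at 2h, and 1056, 1271 and 898 CPM at 3D, against 1152, 1174 and 1556 CPM in WT at 3D. AGP31, an arabinogalactan protein, had 0.613, 2.50 and 0.771 CPM in the labelled libraries at 2h, against 0.0650, 0.0767 and 0.0602 CPM in WT at 2h, and -4.56 log2 as interaction (adjusted p = 6.64e-05). Its values in WT at 2h lie near 3 counts, which stand for 0.0463 to 0.0512 CPM there before scaling. The size of its interaction is therefore uncertain. DIR6, a dirigent protein of lignan formation, had 1.42, 1.97 and 2.33 CPM in the labelled libraries at 2h, against 0.650, 0.767 and 0.361 CPM in WT at 2h, and -1.90 log2 as interaction. The call did not survive the loss of 1 library for EXPA1 without replicate 2 of gpat4 gpat8 at 2h (-0.99 log2) and for TCH4 without any one of 8 of the 12 libraries (1.75 to 1.89 log2). EXT4 moved to -1.52 log2 without replicate 2 of the labelled 2h group and was still called. In the 12 libraries fitted alone its call ended (-2.33 log2, adjusted p = 0.0673).

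Of 28 genes of salicylic acid and immunity, 4 were called lower and 1 higher, against 2.46% and 2.18% of all genes. EDS16, the isochorismate synthase that makes the hormone, had 6.85, 18.3 and 5.05 CPM in libraries labelled gpat4 gpat8 at 3D and 7.46, 11.0 and 9.91 CPM at 2h, against 11.5, 12.4 and 31.8 CPM in WT at 3D and 3.38, 4.83 and 4.83 CPM in WT at 2h (interaction -2.001 ± 0.44 log2, SE, adjusted p = 0.00127). PAD4, which amplifies the signal, gave -1.18 log2, WRKY54 gave -1.44 and the response gene PR5 gave -2.98. PR5 had 18.5, 26.1 and 4.96 CPM in the labelled libraries at 3D, against 11.3, 50.5 and 74.8 CPM in WT at 3D, with wide overlap. The 1 member called higher was WRKY53, at 1.76 log2 (adjusted p = 0.016), with 41.2, 58.3 and 39.4 CPM in the labelled libraries at 3D, against 8.64, 9.69 and 17.2 CPM in WT at 3D. Without replicate 1 of WT at 2h 2 members were called lower, and in the 12 libraries fitted alone also 2, where the calls of EDS16 (-2.01 log2, adjusted p = 0.0959) and PR5 (-2.99 log2, adjusted p = 0.097) ended. When libraries were left out singly, calls ended for WRKY54 without any one of 4 of the 12 libraries (-1.37 to -1.15 log2), for WRKY53 without any one of 4 of the 12 libraries (1.52 to 1.64 log2) and for PR5 without any one of 4 of the 12 libraries (-2.81 to -2.24 log2). WRKY53 is overlapped by a gene on the other strand over 21.1% of its length.

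Some cutin and wax genes of the barrier itself were called. In the cutin and wax list, 2 of 33 members were called higher and 1 lower, against 2.18% and 2.46% of all genes. MYB96, an activator of wax synthesis, had 33.4, 36.4 and 32.3 CPM in libraries labelled gpat4 gpat8 at 3D and 409, 281 and 294 CPM at 2h, against 10.6, 11.3 and 11.0 CPM in WT at 3D and 367, 357 and 306 CPM in WT at 2h (interaction 1.70 ± 0.27 log2, SE, adjusted p = 1.32e-05). LTPG1, a lipid transfer protein of wax export, had 16.4, 17.0 and 16.0 CPM in the labelled libraries at 3D, against 8.57, 7.66 and 7.95 CPM in WT at 3D, and gave 1.01 log2. HTH, a cuticle gene whose loss fuses organs, gave -1.25 log2 (adjusted p = 0.0287). Dependent on 1 library were the calls of LTPG1 without any one of 4 of the 12 libraries (0.98 to 0.99 log2) and of HTH without any one of 6 of the 12 libraries (-1.22 to -0.62 log2). GPAT6, a relative of the 2 genes in the label that also makes cutin, had 40.5, 38.0 and 52.7 CPM in the labelled libraries at 3D, against 56.0, 50.5 and 58.1 CPM in WT at 3D, and an interaction of 0.01 ± 0.29 log2 (adjusted p = 1). CYP86A2, an oxidase of cutin monomers, had 253, 245 and 298 CPM in the labelled libraries at 3D and 1046, 1097 and 1077 CPM at 2h, against 299, 266 and 309 CPM in WT at 3D and 1093, 1127 and 1055 CPM in WT at 2h. Of the epidermal regulators, ATML1 gave -0.59 ± 0.16 log2 (SE, adjusted p = 0.00803), under the threshold of size, and PDF2 gave -0.03 ± 0.16 log2 (adjusted p = 0.945).

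Most suberin genes were higher at 3D than at 2h in both genotypes. Of 21 members, 16 were called higher at 3D than at 2h in libraries labelled gpat4 gpat8 and 16 in WT. In the interaction 1 of the 21 was called, lower, against 2.46% of all genes. GPAT5, the acyltransferase of suberin, had 114, 125 and 119.8 CPM in the labelled libraries at 3D and 0, 0.0954 and 0 CPM at 2h, against 146, 138 and 163 CPM in WT at 3D and 0, 0.0576 and 0 CPM in WT at 2h. CYP86A1, the suberin fatty acid hydroxylase, had 497, 485 and 517 CPM in the labelled libraries at 3D, against 689, 619 and 668 CPM in WT at 3D, and had no count in the 6 libraries of 2h. For the 11 members with a group at or under 3 counts in every library, the interaction has no usable size, which includes the called member MYB53, at 0.148, 0.0763 and 0.0579 CPM in the labelled libraries at 2h, against 0, 0 and 0 CPM in WT at 2h. Differences at 3D alone can still be read, and 2 members were called, both higher. FACT, a transferase of caffeate to fatty alcohols, had 73.2, 79.7 and 88.6 CPM in the labelled libraries at 3D, against 27.8, 20.2 and 15.9 CPM in WT at 3D (difference 1.92 log2, adjusted p = 0.0316). FAR1, a reductase that makes fatty alcohols, had 69.0, 76.3 and 58.0 CPM in the labelled libraries at 3D and 90.6, 147 and 164 CPM at 2h, against 23.2, 19.0 and 16.4 CPM in WT at 3D and 62.2, 112 and 85.7 CPM in WT at 2h (difference at 3D 1.79 log2, adjusted p = 0.00322; interaction 1.16, adjusted p = 0.209). These suberin and cutin genes other than MYB53, MYB96, LTPG1 and HTH were named after their values had been seen.

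In the clock list, 1 of 17 members was called higher and 2 lower, against 2.18% and 2.46% of all genes. The morning genes CCA1 and LHY gave -1.43 and -1.48 log2, and RVE1, a related factor, gave 1.77. CCA1 had 3.504, 4.51 and 3.63 CPM in libraries labelled gpat4 gpat8 at 3D and 126, 121 and 104 CPM at 2h, against 8.13, 6.70 and 7.70 CPM in WT at 3D and 82.4, 86.2 and 83.5 CPM in WT at 2h. A difference in the hour of sampling between the genotypes cannot be told apart from one in the clock. With 1 library left out, the call ended for LHY without replicate 3 of gpat4 gpat8 at 3D (-1.39 log2) or replicate 3 of WT at 3D (-1.10 log2).

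In the remaining lists single members or none were called. Of all genes tested, 2.18% were called higher and 2.46% lower. EBF1, which degrades the ethylene factor EIN3, was the 1 of 28 ethylene genes called higher, at 1.05 log2, with 277, 224 and 249 CPM in libraries labelled gpat4 gpat8 at 2h, against 556, 509 and 499 CPM in WT at 2h. In the lists of nutrient deficiency, the iron reductase FRO3 was called lower (1 of 8, -1.002 log2), and AT5G26220 (GGCT2;1), a glutathione-degrading enzyme, was called higher (1 of 9 for sulphur, 1.05 log2), as was MGDC (1 of 9 for phosphate, 1.40 log2), a galactolipid synthase. No member was called by edgeR among 14 genes of cold and dehydration, 15 of heat shock, 18 of auxin response and 14 of aliphatic glucosinolates. In this order 3, 3, 1 and 8 members had an unadjusted p under 0.05 and DESeq2 called 0 in each. In other settings of edgeR, KIN1 of the cold list was called in the 12 libraries fitted alone (1.37 log2, adjusted p = 0.027). SOT17 of the aliphatic glucosinolates was called without replicate 3 of gpat4 gpat8 at 3D (1.02 log2). The call did not survive the loss of 1 library for EBF1 without replicate 1 of gpat4 gpat8 at 3D (0.94 log2) or replicate 2 of gpat4 gpat8 at 2h (0.98 log2), for FRO3 without any one of 4 of the 12 libraries (-0.99 to -0.86 log2), for AT5G26220 without any one of 9 of the 12 libraries (0.74 to 1.18 log2) and for MGDC without any one of 6 of the 12 libraries (1.04 to 1.37 log2). Over the 27 lists, 47 of 491 members were called higher and 31 lower, against 2.18% and 2.46% of all genes.

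Further called genes outside the lists, named for a large interaction or a high level, were of mixed function. DXPS1, annotated as a synthase of the plastid isoprenoid pathway, had 3.06, 1.39 and 2.02 CPM in libraries labelled gpat4 gpat8 at 2h, against 51.5, 9.02 and 17.2 CPM in WT at 2h (interaction 4.79 log2, adjusted p = 3.94e-04). NUDT24, a nudix hydrolase, had 2.68, 2.90 and 2.53 CPM in the labelled libraries at 2h, against 44.8, 33.0 and 45.2 CPM in WT at 2h, and 189, 152 and 164 CPM at 3D, against 218, 162 and 164 CPM in WT at 3D. WRKY61 and THA1, a threonine aldolase, gave 3.00 and 2.96 log2. The 2 annotated copies of AT14A have identical transcripts, so that their counts cannot be told apart, and gave 3.12 log2. On the negative side, AT3G08030, a protein of unknown function, had 17.0, 29.0 and 20.1 CPM in the labelled libraries at 2h, against 0.888, 1.98 and 0.983 CPM in WT at 2h, and 61.7, 63.1 and 64.9 CPM at 3D, against 50.3, 68.1 and 70.4 CPM in WT at 3D (interaction -4.08 ± 0.48 log2, SE, adjusted p = 4.45e-08). AT2G40400 (BPG3) had 28.2, 61.9 and 20.1 CPM in the labelled libraries at 2h, against 2.12, 2.69 and 3.25 CPM in WT at 2h, and under 3 CPM in all 6 libraries of 3D. AT1G66430, a pfkB-like carbohydrate kinase, AT1G09200, a histone H3.1, and AT3G23530, annotated as a cyclopropane fatty acid synthase with a near copy elsewhere, gave -2.78, -2.37 and -2.40 log2. AT4G20390 (CASPL1B2), related to the proteins of the Casparian strip, had 55.7, 54.1 and 73.3 CPM in the labelled libraries at 3D and 2.28, 1.07 and 1.21 CPM at 2h, against 93.0, 81.9 and 88.7 CPM in WT at 3D and 1.23, 0.614 and 0.722 CPM in WT at 2h (interaction -1.36 log2). AT1G19230 (RBOHE), the gene named in the label rbohE, gave -1.58 log2. In libraries labelled rbohE it averaged 2.73 CPM at 3D and 0.836 CPM at 2h. The averages were 45.7 and 0.279 CPM in WT and 39.7 and 0.730 CPM in libraries labelled gpat4 gpat8, at 3D and 2h. With rbohE in place of WT its interaction was 4.07 log2 (adjusted p = 2.15e-08). The Hsp70 gene AT3G09440 gave -1.04 log2. UGT74D1 gave -2.27 log2, but it is overlapped over 99.3% of its length by a gene on the other strand and uncertain. When libraries were left out singly, calls ended for AT4G20390 without any one of 5 of the 12 libraries (-1.31 to -0.95 log2), for AT1G19230 without replicate 1 of gpat4 gpat8 at 2h (-1.20 log2) or replicate 2 of WT at 2h (-1.20 log2) and for AT3G09440 without any one of 3 of the 12 libraries (-0.98 to -0.86 log2). In the 12 libraries fitted alone the call of AT3G23530 ended (-2.42 log2, adjusted p = 0.103).

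**Figure D5:**
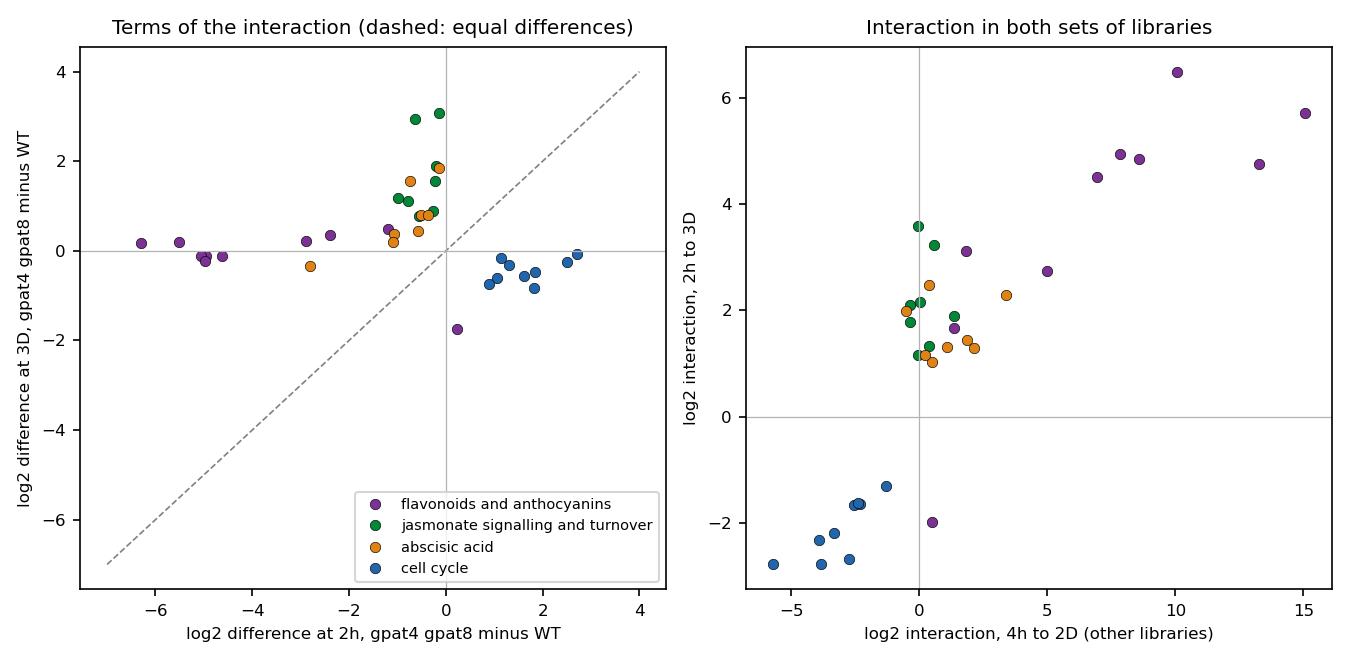
Called members of 4 lists. Left, the log2 difference between libraries labelled gpat4 gpat8 and WT at 3D (vertical axis) against that at 2h (horizontal axis), with a dashed line where both are equal: the 9 anthocyanin genes called higher lie left of 0 and the cell cycle genes right of it, the 8 jasmonate genes lie above 0. MYB111, called lower, is at 0.22 and -1.75. Right, the log2 interaction from 2h to 3D (vertical axis) against the one from 4h to 2D in other libraries (horizontal axis): cell cycle genes are negative in both, and on the horizontal axis the jasmonate genes lie between -0.38 and 1.35 and the 9 anthocyanin genes called higher at 1.36 or more.

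Across all called genes, the interaction from 4h to 2D, taken in 12 libraries that the interaction from 2h to 3D does not use, had the same sign in 365 of the 511 genes called higher (71.4%) and in 478 of the 577 called lower (82.8%). It was itself called in that direction for 202 (39.5%) and 358 (62.0%) of them, against 8.27% and 10.2% of all genes tested, and in the other direction for 50 and 19. All genes tested split into 51.5% positive and 48.1% negative. The 2 sets share no library, but they share the genotypes and their labels. With rbohE in place of WT, 555 genes were called (2.36%), 231 higher and 324 lower.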

How the data were processed

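Leaf messenger RNA was sequenced in 75 libraries, of which 12 enter the interaction. Reads were trimmed with Trimmomatic 0.39, aligned with HISAT2 2.2.1 and counted with StringTie 1.3.4, and edgeR 3.19 is named with them, for the build TAIR10, per the submitters' processing notes. The deposited table holds estimated counts, which the authors made per gene with these tools, per the submitters' processing notes and the column names. The values were whole and were used as deposited. Low values stood 2.63 apart, so that 1 read can stand for more than 1 count. The strand setting of the counting is not given in the sources used here.

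All 75 libraries were fitted with a coefficient for each of 25 groups, using edgeR 4.0.16 and limma 3.58.1 in R 4.3.3: TMM scaling, filterByExpr (minimum count 10, total 15), robust quasi-likelihood fit, prior count 0.125, Benjamini-Hochberg adjustment over 23475 genes, and SE from the log2 value and its F statistic. Every adjusted p is from this edgeR test unless DESeq2 1.42.0 is named. The tests were tried on simulated data. Scaling, filter, tool, libraries in the fit, count spacing, the replicate block and each library left out were varied.

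The genes in the label, ATML1 and PDF2, the largest changes by size and by level, called list members and, in each list, the gene of smallest adjusted p were named by rule. Not all of these 121 genes are described above. The plastid genes ATCG01180 and ATCG00950 were called lower (-1.38 log2 each). CYP98A3, HSFB2A, WES1, AT3G54500, APR1, SPX1, KCS10 and BASL, each of smallest adjusted p in a list, were not called. Other genes are to be read as chosen after their values were seen. Beside those marked so above, these are COI1, MYC4, MYC2, JAZ1, TIFY10B, JAZ12, AOS, OPR3 and NCED3. The comparison and the lists were chosen with earlier results of these data known. Of 519 list genes written, 13 were dropped because their symbol did not match RefSeq's. Gene names come from RefSeq TAIR10.1 (32548 of 32833 identifiers matched), as do coordinates and the 250 bases before each annotated start. The plan had been a window of a promoter table that reaches past the start, and the shorter window was read from the genome instead.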

Additional observations from a re-analysis of the deposited data

Results flagged for a closer look

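The change from 2h to 3D differed between libraries labelled gpat4 gpat8 and WT in 1088 genes, by the edgeR test of the interaction. In 4 of the named genes the interaction from 2h to 3D and the one from 4h to 2D were both called with opposite signs, and their difference was called by the same test. For the 2h to 3D minus the 4h to 2D interaction, UGT74D1 had -3.69 ± 0.72 log2 (SE, adjusted p = 1.16e-04), from -2.27 and 1.42, with its count uncertain because a gene on the other strand covers it. AT4G20390 (CASPL1B2) had -4.42 ± 0.65 log2 (SE, adjusted p = 7.64e-07), from -1.36 and 3.06. The NAC factor NAC3 had 2.80 ± 0.61 log2 (SE, adjusted p = 4.98e-04), from 1.29 and -1.51. The clock-related RVE1 had 3.28 ± 0.72 log2 (SE, adjusted p = 5.65e-04), from 1.77 and -1.51.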

How the results depend on the processing

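Beside 1088 genes, the interaction was called in 1078 with RLE size factors, 1278 with DESeq2, 1004 without the filter, 1097 with a minimum count of 50, 1143 without the M libraries, 1084 with counts divided by the spacing, 776 in the 12 libraries alone (335 of them lower) and 1012 without plastid, mitochondrial and ribosomal RNA genes, the last chosen after seeing the data. The replicate block gave 1104. Whether the replicate numbers pair the samples cannot be told from these values. Over 18 pairs of same-numbered libraries the correlation of deviations from the group means lay between -0.19 and 0.14, and 2 of them were over 0.1. Over 36 pairs of other numbers it lay between -0.14 and 0.22, and 3 were over 0.1. Same-numbered pairs gave 0.138, 0.078 and 0.074 between the groups of 2h, but -0.030, -0.192 and -0.134 between those of 3D. With the adjusted p alone, 3330 genes passed in the interaction (1596 higher, 1734 lower), 16026 and 16732 in the changes of gpat4 gpat8 and WT, 7069 and 3026 in the differences at 2h and 3D, 9652 from 4h to 2D and 2661 with rbohE in place of WT. Leaving out each of the 12 libraries gave 730 to 1254 called, 402 to 592 higher, 328 to 664 lower, 7939 to 8452 and 9042 to 9410 for the 2 changes, 1159 to 1749 and 642 to 751 for the 2 differences, and 229 to 785 with rbohE. The lowest counts called lower and with rbohE came without replicate 2 of gpat4 gpat8 at 2h, and the cause was not tested. Of 121 named genes, 106 of them called, no call changed direction in these settings. In 48 genes a call ended in at least 1 setting, and 5 genes were called in some setting only. Genes with at most 3 counts in every library of a group have no interpretable fold, which depth sets here.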

Other observations

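Some genes encoded in the plastid genome were also called, although libraries were made from polyadenylated RNA, in which plastid transcripts are poorly captured. Of 113 plastid genes tested, 63 were called lower in the interaction and the others were not called, with a median of -1.49 log2, against 2.46% called lower among all genes. The count fell to 30 without replicate 2 of gpat4 gpat8 at 2h, 31 without replicate 1 of WT at 2h, 40 without replicate 3 of WT at 3D, 41 without replicate 2 of gpat4 gpat8 at 3D and 23 of 100 in the 12 libraries fitted alone, with medians between -1.49 and -1.24 log2. They took 0.212, 0.249 and 0.368% of the counts in libraries labelled gpat4 gpat8 at 3D and 0.482, 0.680 and 0.793% at 2h, against 0.349, 0.418 and 0.577% in WT at 3D and 0.258, 0.405 and 0.49999% in WT at 2h. Of 4 nuclear ribosomal RNA genes, 2 were called lower, AT3G41768 and AT2G01010, whose transcripts are 99.9% identical. Without replicate 3 of WT at 3D they gave -0.98 and -0.97 log2 and were no longer called. Efficiency of the poly(A) selection was not measured and its part in these values was not tested.

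In libraries labelled rbohE at 2h the plastid genes took 0.551, 0.604 and 0.878% of the counts, and at 4h they took 0.434, 0.649 and 0.699% in libraries labelled gpat4 gpat8, against 0.293, 0.350 and 0.359% in WT.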
